A study of Danio rerio with 4 samples.

Results

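A set of 120 zygotic genes was still switched on in zebrafish embryos of ybx1 mutant mothers, out of 771 genes that were zygotic in wild type and 31870 gene identifiers in all. RNA was measured in 4 libraries, 1 each of wild-type embryos (WT) and of embryos labelled as a maternal mutant of ybx1 (Mybx1), at 0 and at 6 hours post fertilisation (hpf). The labels give the tissue as whole embryos and name neither the mutant allele, the strain nor the number of embryos pooled. All 4 libraries were made from total RNA depleted of ribosomal RNA. Levels are in FPKM, fragments per kilobase of gene scaled to library size, so they are shares of a library and say nothing of the total RNA an embryo holds. With 1 library per group no difference has a replicate check and no test was possible, and fewer expressing cells and less RNA per cell cannot be told apart.

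The egg carries a store of maternal mRNA, and the genome of the embryo is transcribed in earnest only after a series of rapid cleavages. Among the first genes to be switched on in zebrafish are many with short transcription units, together with patterning factors, genes of the outer epithelium and arrays of small RNAs. The product of ybx1, with its cold-shock domain, is an RNA-binding protein that the egg already holds.

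Members had an FPKM under 0.5 in both 0 hpf libraries and at least 5 in both 6 hpf libraries, and their log2(FPKM + 1) in Mybx1 at 6 hpf lay less than 1 above that in WT. The rule used all 4 libraries, so the levels below describe the choice and test nothing. The remaining 651 of the 771 zygotic genes of WT fell into 3 classes by their level in Mybx1 at 6 hpf. In 12 of them Mybx1 was above WT by the limit of the rule or more, 389 were partial at 0.5 to under 5 FPKM, and 250 were silent at under 0.5 FPKM. Members thus made up 15.6% of the zygotic genes of WT, and silent genes 32.4%.

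Library totals were between 6042830 and 7570070 reads. The level of ybx1 itself was 338 FPKM in WT and 11.9 in Mybx1 at 0 hpf, and 2287 in WT and 54.2 in Mybx1 at 6 hpf. Egg transcripts were still abundant in the Mybx1 library at 6 hpf, with btg4 at 401 FPKM against 6.22 in WT and org at 195 against 13.6. Of the markers of differentiated tissue, hbae1.1 and myhz2 were listed at 0 in all 4 libraries and the liver gene fabp10a reached 0.80 FPKM in WT at 6 hpf.

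Most members were switched on in Mybx1 but fell short of the WT level. In WT at 6 hpf they ranged from 5.99 to 2042 FPKM with a median of 33.1, and in Mybx1 from 5.06 to 85.2 FPKM with a median of 8.89. The Mybx1 level was a median of 28.2% of the WT level. Of the 120 members 84 were at least 2-fold lower in Mybx1 on log2(FPKM + 1), 47 of these at least 4-fold and 14 at least 16-fold. The other 36 were within 2-fold, and 11 of these lay above WT. Over all 15790 genes whose mean FPKM in the 6 hpf libraries reached 1, 20.8% were at least 2-fold lower in Mybx1, 38.2% at least 2-fold higher and 41% within 2-fold. For the larger folds no share of all genes was taken.

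The median difference of the members, Mybx1 minus WT, was -1.67 on log2(FPKM + 1), against 0.49 over all of those genes. The rule admits no member 1 or more above WT, so part of this contrast was fixed by the choice. Over the zygotic genes of WT, members included, the median was -2.72, further below WT than that of the members. This order follows largely from the rule, since partial and silent genes are by definition under 5 FPKM in Mybx1. The median of all genes was 0.71 with FPKM rescaled to the same sum in every library (TPM) and -0.17 with median-of-ratios scaling, and that of the members stayed negative at -1.50 and -2.38. With median-of-ratios scaling 14 of the 36 stayed within 2-fold, 106 members were at least 2-fold lower and 3 lay above WT. With TPM 36 were within 2-fold, 33 of them among the 36 by FPKM. An interval for counting error alone lay wholly below the WT level in 86 members, wholly above it in 6, and covered equal levels in 28. Such intervals are exact 95% (Clopper-Pearson, conditional binomial) intervals of the fold between 2 libraries. They were computed from the smallest whole reads that give the FPKM values, which are lower limits. Where the true reads were more, the interval is too wide, and the 3 counts above depend on this. The intervals cover counting error only. No share of all genes was taken for such intervals or with median-of-ratios scaling. How far the counts of members given for either differ from those of all genes is therefore not known.

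**Figure D1:**
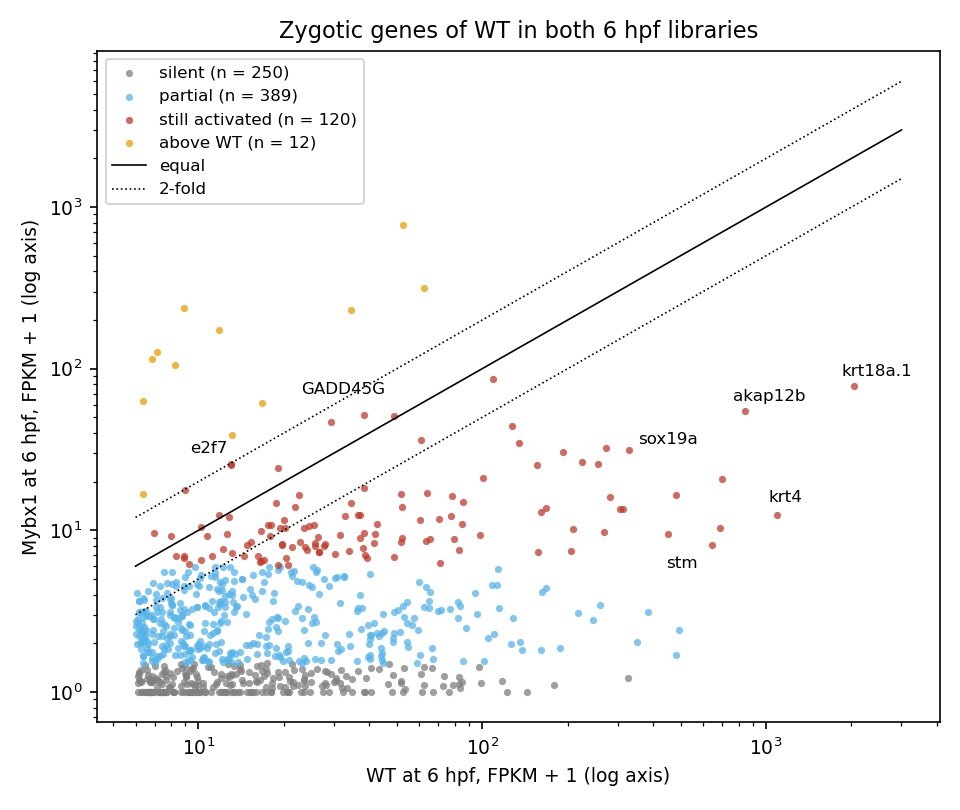
Level of the 771 zygotic genes of WT in the WT library (x axis) and the Mybx1 library (y axis) at 6 hpf, each as FPKM + 1 on a log axis, coloured by class, with lines of equal levels and of 2-fold differences. Each point is a gene. The 120 members span 5.99 to 2042 FPKM in WT but only 5.06 to 85.2 FPKM in Mybx1, and 84 of them lie on or under the lower 2-fold line.

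Of all genes whose mean FPKM over both stages reached 1, 7.67% were at least 2-fold higher at 6 than at 0 hpf in Mybx1 and 24.2% in WT. All 120 members were, by the rule. At 0 hpf 81 members had no read in WT, 67 had none in Mybx1, and 58 had none in either. No member had more than 12 reads in WT or 11 in Mybx1 at 0 hpf. The members took up 1.84% of the summed FPKM of the WT library at 6 hpf and 0.257% of that of the Mybx1 library.

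Across the 120 members the levels in WT and Mybx1 had a Spearman rho of 0.45. These genes share both libraries and are not independent replicates. The rule bounds both levels, so this rho describes the chosen set only. The higher a gene was in WT, the more often it was a member. Members were 10 of the 290 zygotic genes at 5 to under 10 FPKM in WT, 47 of 280 at 10 to under 30, 37 of 148 at 30 to under 100, 15 of 37 at 100 to under 300 and 11 of 16 at 300 or more. In the same order their median level in Mybx1 was 82.8%, 41.3%, 19.7%, 9.75% and 3.23% of that in WT. Both follow in part from the rule, since a gene near 5 FPKM in WT passes the same minimum in Mybx1 only when it is close to WT.

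Genes were also compared on either side of each threshold of the rule. At the minimum in Mybx1 at 6 hpf, si:dkey-103d23.3 was inside with 5.06 FPKM and tagapa outside with 4.97. At the minimum in WT, si:dkey-27p18.6 was inside with 5.99 FPKM and dnaaf19 outside with 4.28. At the limit of the difference, si:dkey-220a11.9 was inside with a log2 difference of 0.99, and the nearest gene outside had 1.41. At the limit for 0 hpf, si:ch211-191i18.4 was inside with 0.499 FPKM in WT and SERPINH1 outside with 0.509 in Mybx1.

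Members fell into 4 kinds by their names. A gene name was found for 45, a clone-based name, with a prefix such as si: or sb:, for another 45, no symbol for 25, and the name of a small RNA for 5. The sorting went by prefix and was rough, since it also put the non-member id1 among the clone-based names. Clone-based names thus made up 37.5% of the members and 22.3% of the other zygotic genes of WT, against 9.22% of all 8870 genes at 5 FPKM or more in WT at 6 hpf. Read the other way, members were 10.7% of the 419 zygotic genes with a gene name, 23.7% of the 190 with a clone-based name and 18.9% of the 132 with no symbol. These shares are given side by side with no test. Names in capitals below are given in their human form. Each value belongs to a single gene identifier, but where several zebrafish genes share such a name, which copy it stands for was not settled here.

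Among members with a gene name, 9 of 45 were within 2-fold of WT. With median-of-ratios scaling all 9 stayed within 2-fold, but only e2f7 was then above WT, and GADD45G, plekhn1, drll.3, znf1145, znf1125 and dnase1l4.2 turned from above to below it. With TPM e2f7 left the range, at a log2 difference of 1.22. Folds below are on FPKM. GADD45G, of a family induced by growth arrest and DNA damage, had 0 reads in both 0 hpf libraries, 37.3 FPKM in WT at 6 hpf and 50.8 in Mybx1, so that Mybx1 was 1.36-fold higher (95% counting interval 1.14 to 1.63). The pleckstrin homology gene plekhn1 went from 0.269 to 48.0 FPKM in WT and from 0.372 to 50.1 in Mybx1, 1.04-fold of WT (0.914 to 1.19). e2f7, an E2F factor that represses transcription, stood nearest to the upper limit of the rule among members with a gene name, with 0.0614 and 12.1 FPKM in WT and 0.191 and 24.8 in Mybx1. The 2 libraries at 6 hpf were 2.06-fold apart for e2f7 (1.70 to 2.50).

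A further group of these 9 encodes zinc finger proteins by name or family. drll.3, of the draculin-like family, had 0 reads in WT at 0 hpf and 17.99 FPKM at 6 hpf, against 0.397 and 23.2 in Mybx1, 1.29-fold higher (1.098 to 1.52). znf1145 had 0 reads in both 0 hpf libraries and reached 9.18 FPKM in WT and 9.49 in Mybx1, and znf1125 reached 7.02 in WT and 8.20 in Mybx1. For both znf genes the counting interval covered equal levels. The other zygotic genes of WT with a znf name were partial or silent. Among them znf1063 had 27.9 FPKM in WT and 3.51 in Mybx1, znf1060 7.91 and 2.27, znf1061 5.69 and 0.762, and znf999 5.85 and 1.29. The similarly named znfl1c was silent, at 16.4 and 0.306. The chemokine gene cxcl12b went from 0.0464 to 9.69 FPKM in WT and from 0.0963 to 8.26 in Mybx1. dnase1l4.2, related to DNase I, reached 10.8 FPKM in WT and 11.5 in Mybx1, and b3galt10.1, a galactosyltransferase gene, 7.33 and 5.88.

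**Figure D2:**
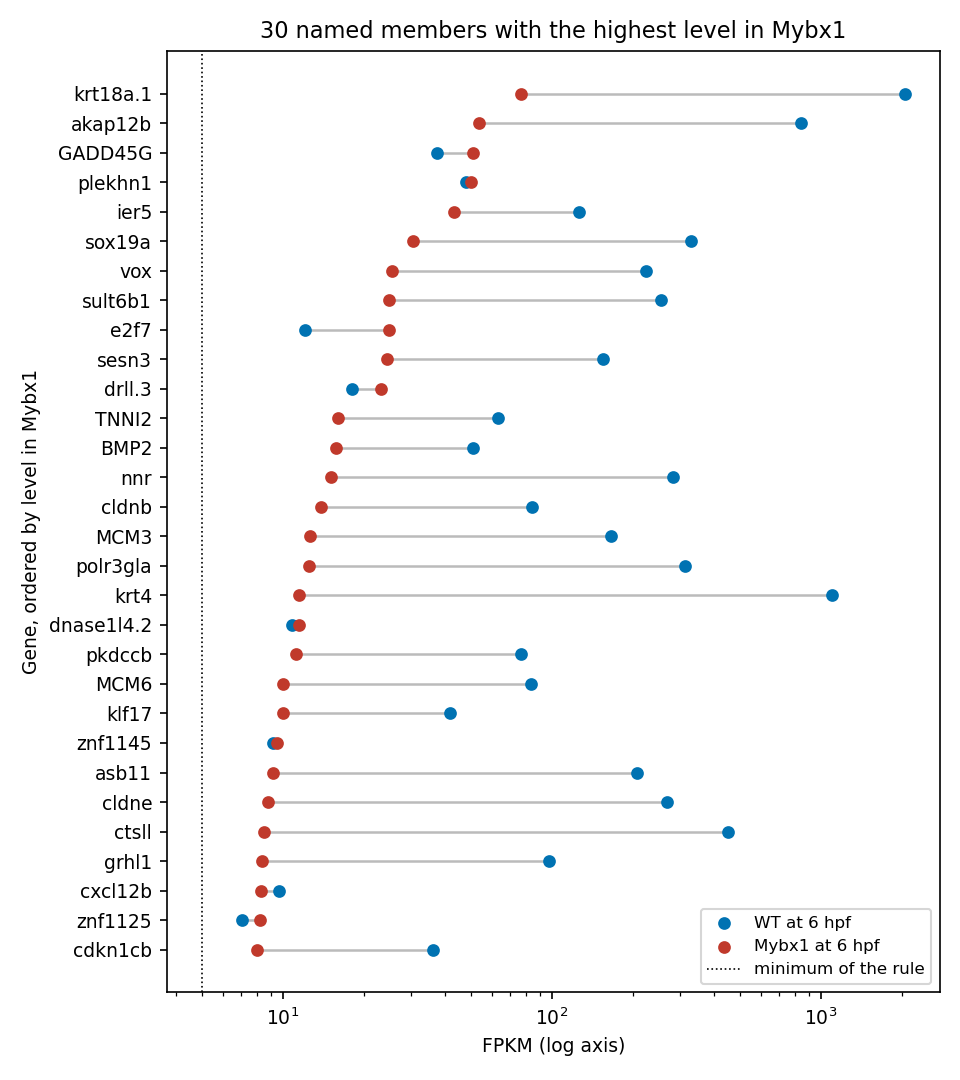
FPKM at 6 hpf (log axis) of the 30 members with a gene name that were highest in Mybx1, as a blue point for WT and a red point for Mybx1, joined by a line. Points of GADD45G, plekhn1, drll.3 and the znf genes nearly coincide, whereas krt18a.1, akap12b and krt4 are at 2042, 845 and 1094 FPKM in WT and at 77.0, 53.5 and 11.5 in Mybx1.

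The transcription factors and cofactors among the members numbered 10, grouped by hand after their values were seen. Besides e2f7, drll.3 and both znf genes, the other 6 were at least 2-fold below WT. sox19a, a SoxB1 factor of the early ectoderm, had 0 reads at 0 hpf and 329 FPKM at 6 hpf in WT, and went from 0.0855 to 30.4 FPKM in Mybx1, 10.8-fold below WT (9.61 to 12.2). Within Mybx1 this was a 355-fold difference between the stages (63.3 to 14082), from 1 read at 0 hpf. vox, a homeobox repressor of dorsal genes, went from 0.133 to 224 FPKM in WT and from 0.276 to 25.5 in Mybx1, 8.78-fold below WT (7.43 to 10.4).

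The Krüppel-like factor gene klf17 reached 41.7 FPKM in WT against 9.98 in Mybx1, 4.18-fold lower (3.35 to 5.26). mxtx1, a homeobox gene of the yolk syncytial layer, reached 38.4 FPKM in WT against 5.70 in Mybx1, 6.73-fold lower (5.17 to 8.89). grhl1, a grainyhead-like factor of epithelia, reached 97.4 FPKM in WT and 8.39 in Mybx1, and vgll4l, a vestigial-like cofactor, 22.7 and 6.93. All of these levels in Mybx1 were well above the 0 hpf level of the same genotype, which was 0.391 FPKM or less.

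Of the 9 members grouped as signals, receptors and their scaffolds, cxcl12b was within 2-fold and 8 were lower. akap12b, a scaffold for protein kinases, was the most deeply covered, with 0.349 and 845 FPKM in WT and 0.332 and 53.5 in Mybx1, 15.8-fold below WT (14.97 to 16.6). The ligand gene given as BMP2 had 0 reads at 0 hpf and 50.8 FPKM at 6 hpf in WT, against 0.384 and 15.8 in Mybx1, 3.22-fold lower (2.71 to 3.84). ndr2, a Nodal ligand, went from 0.175 to 25.5 FPKM in WT and from 0.0904 to 6.34 in Mybx1, 4.02-fold lower (3.01 to 5.46).

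dkk1b, a secreted antagonist of Wnt, had 0 reads in both 0 hpf libraries and reached 25.6 FPKM in WT against 6.36 in Mybx1, 4.02-fold lower (2.17 to 8.03). The Wnt receptor gene given as FZD8 reached 47.9 FPKM in WT and 5.85 in Mybx1, and the gene given as ACKR3, a scavenger receptor for Cxcl12, 29.2 and 6.10. The Eph receptor gene epha2b had 19.3 FPKM in WT and 5.72 in Mybx1, and pkdccb, a secreted protein kinase gene, 76.8 and 11.2. Among these members the scaffold gene akap12b was thus the highest in Mybx1, and BMP2, at 15.8 FPKM, came next.

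Members tied to growth arrest, stress and DNA replication numbered 7, of which GADD45G was within 2-fold and 6 were lower. ier5, an immediate early response gene, went from 0.356 to 126 FPKM in WT and from 0.185 to 43.38 in Mybx1, 2.90-fold lower (2.59 to 3.27). sesn3, a sestrin gene of the stress response, reached 155 FPKM in WT against 24.4 in Mybx1, 6.37-fold lower (5.82 to 6.98). The genes given as MCM3 and MCM6, subunits of the replicative helicase, reached 166 and 83.8 FPKM in WT and 12.6 and 9.98 in Mybx1. cdkn1cb, an inhibitor of cyclin-dependent kinases, stood at 36.2 FPKM in the WT library and 7.99 in that of Mybx1, and the gene given as GADD45B at 64.3 and 7.82.

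Among members with a gene name, krt4, stm, ctsll, cldne and krt18a.1 were the furthest below WT, and 4 clone-named or unnamed members also lay between krt4 and cldne. krt4, a keratin gene, went from 0.214 to 1094 FPKM in WT and from 0.222 to 11.5 in Mybx1, 95.5-fold below WT (82.1 to 112). The keratin gene krt18a.1 had the highest WT level of all members, 2042 FPKM, and reached 77.0 in Mybx1, 26.5-fold lower (24.2 to 29.1). Even so the krt18a.1 level in Mybx1 was second among the 120 members.

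The claudin genes cldne and cldnb, of epithelial tight junctions, reached 267 and 84.4 FPKM in WT and 8.82 and 13.9 in Mybx1. gpa33a, a surface glycoprotein gene, reached 37.1 FPKM in WT and 6.72 in Mybx1. None of these 5 epithelial members, grouped by hand, was within 2-fold of WT, against 36 of all 120 members. All 5 were above 30 FPKM in WT. In each band of WT level from 30 FPKM up, members had a median of 19.7% of WT or less. stm, known for the ear stones of the larva, had 0 reads in both 0 hpf libraries and reached 646 FPKM in WT against 7.13 in Mybx1, 90.5-fold lower (70.1 to 119). ctsll, a cathepsin-like protease gene, reached 451 FPKM in WT against 8.48 in Mybx1, 53.2-fold lower (42.2 to 68.0).

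Other large gaps were found for nnr, with 281 FPKM in WT and 15.1 in Mybx1, polr3gla, a subunit of RNA polymerase III, with 312 and 12.5, and asb11, an ankyrin repeat gene, with 208 and 9.19. The amino acid transporter gene given as SLC7A8 stood at 156 FPKM in WT and 6.39 in Mybx1, and sult6b1, a sulfotransferase gene, at 255 and 24.8. The troponin gene given as TNNI2, a name that 6 identifiers share, went from 0.0359 to 62.9 FPKM in WT and from 0.0372 to 15.98 in Mybx1. In each of these genes the WT library was at least 2-fold higher.

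Clone-named genes included the member with the highest level in Mybx1. si:ch211-173m16.2, which RefSeq lists as a long noncoding RNA, had 0 reads in both 0 hpf libraries, 108 FPKM in WT at 6 hpf and 85.2 in Mybx1, 1.27-fold lower (1.06 to 1.51). si:dkey-254e13.13 was 28.4 FPKM in WT and 45.8 in Mybx1, also from 0 reads at 0 hpf, and si:ch211-195b13.9 was 12.004 FPKM in WT and 24.2 in Mybx1. In contrast si:ch211-279m15.1 had 685 FPKM in WT but 9.37 in Mybx1, 73.2-fold less (54.0 to 102), and si:ch211-152c2.3, another long noncoding RNA in RefSeq, had 481 and 15.6.

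The clone-named members as a group had a median difference of -1.65 on log2(FPKM + 1), with 14 of 45 within 2-fold, against -2.52 and 9 of 45 for members with a gene name. Their median level was 30.5 FPKM in WT and 8.96 in Mybx1, and that of the members with a gene name 50.8 and 9.49. Levels in Mybx1 were close between the kinds, and the wider gap of the genes with a name went with a higher level in WT. Both follow in part from the rule, which sets the same minimum of 5 FPKM in Mybx1 for every kind. Of the 120 members only 47 could be matched to RefSeq by a unique symbol, 42 as protein coding and 5 as long noncoding, so a comparison of coding and noncoding shares between classes is void.

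A part of the set has very short recovered lengths and few recovered reads. The length that the authors used for a gene could be recovered from the steps of its FPKM values, as the smallest whole length that gives whole reads in all 4 libraries, and is a lower limit. Of the 120 members 21 had a recovered length under 200 bases, and their true lengths and reads may be larger. These were 14 with no symbol, 5 with the name of a small RNA and 2 with a clone-based name. At 100 bases a single read gives 1.65 FPKM in the Mybx1 library at 6 hpf and 1.37 in that at 0 hpf. A gene of that length therefore needs 0 reads at 0 hpf to be a member, as all 21 had, and passes the minimum at 6 hpf on a few.

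In Mybx1 at 6 hpf 18 members had under 10 recovered reads, and all 18 had recovered lengths under 200 bases. Reads given here are such lower limits. SNORD14, of the small nucleolar RNAs that guide methylation of ribosomal RNA, had 13 reads in WT and 9 in Mybx1 at 6 hpf, which are 21.7 and 15.5 FPKM and 1.40-fold apart (0.553 to 3.71). Of the 2 members named SNORD58, that with the longer recovered length had 10 and 4 reads, at 22.6 and 9.32 FPKM. A spliceosomal RNA gene given as U1, a name that 47 identifiers share, had 19 and 7 reads, and the microRNA gene given as MIR17 had 7 and 3. For SNORD14, both SNORD58 genes and MIR17 the interval covered equal levels, and for U1 the WT level was 2.63-fold higher (1.06 to 7.40). Reads from near-identical copies of such genes cannot be assigned with certainty.

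**Figure D3:**
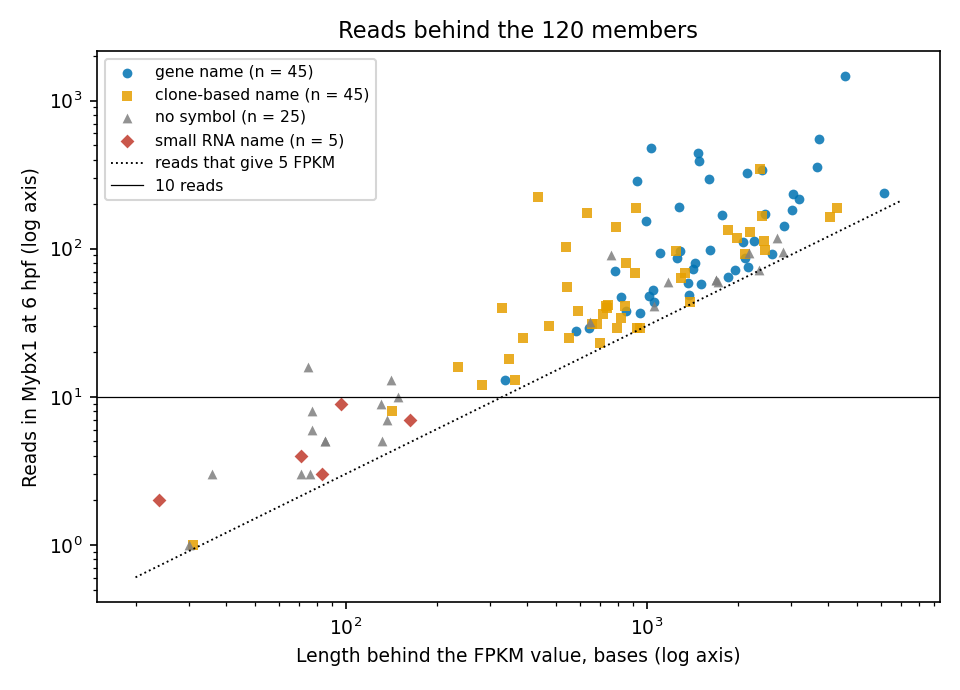
Reads in Mybx1 at 6 hpf (y axis, log) against the recovered length in bases (x axis, log) of the 120 members, by kind of name. The dotted line marks the reads that give 5 FPKM and the solid line 10 reads. The 18 members under 10 recovered reads all have recovered lengths under 200 bases. Members with a gene name have recovered lengths of 338 to 6116 bases.

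Members had shorter recovered lengths, which are lower limits, than the other zygotic genes. Their median length was 970.5 bases (quartiles 523 and 1883), against 1404 (785 and 2295) for the 651 other zygotic genes, 1471 for the partial and 1394 for the silent class. All 8870 genes at 5 FPKM or more in WT at 6 hpf had a median of 1575. The 12 genes above WT had a median of 979.5, close to the members. These lengths enter the rule through the reads that a given FPKM needs, and the difference was not tested.

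The gap in length narrowed when genes of short recovered length or without a gene name were left out. Over genes of at least 200 bases the medians were 1273 for 99 members and 1560 for 580 others. Over genes with a gene name they were 1484 for 45 members and 1828 for 374 others. Where reads were found in 3 or 4 libraries, so that the length is less often a lower limit, they were 1614 for 62 members and 1892 for 344 others. With this condition and a gene name together they were 1819 for 32 members and 2039 for 253 others. At 10 to under 100 FPKM in WT, the medians were 850.5 for 84 members and 1494 for 344 others, and 1514 for 25 and 1865 for 228 among genes with a gene name. The gap was smaller at 5 to under 10 FPKM in WT, with 1153 for 10 members and 1270 for 280 others, and at 100 FPKM or more, with 1279.5 for 26 and 1409 for 27. Members were the shorter side in each of these comparisons.

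**Figure D4:**
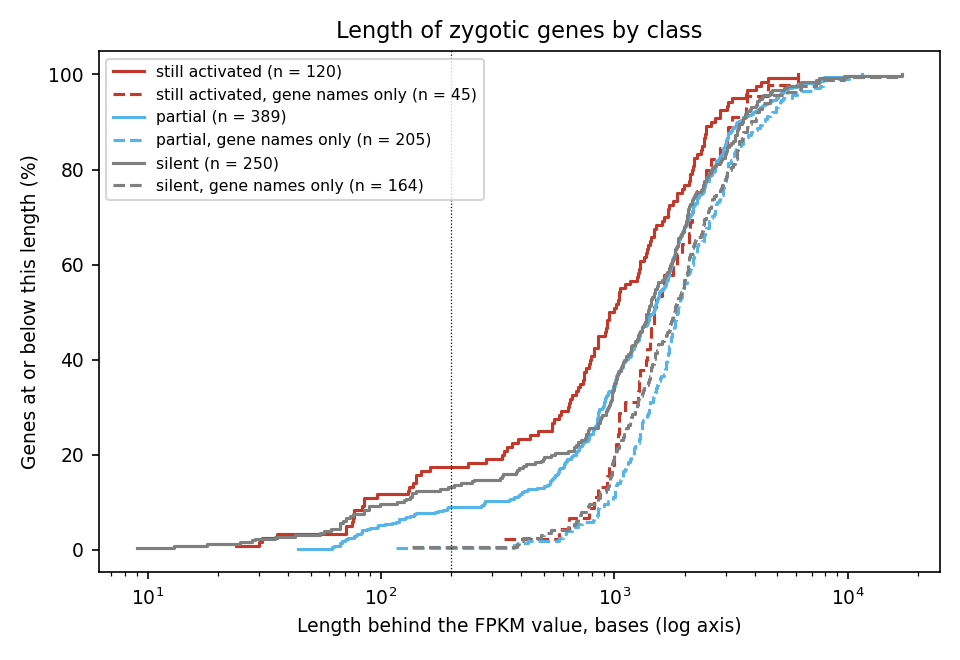
Share of genes (y axis, percent) at or below a given recovered length in bases (x axis, log), for members (red), partial (blue) and silent (grey) zygotic genes, over all genes (solid) and genes with a gene name (dashed). The dotted line marks 200 bases. The red line lies to the left of the others over most of its course, with a median of 970.5 bases against 1471 and 1394, and the gap is smaller among genes with a gene name.

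By length, members were 14 of 61 zygotic genes under 100 bases (23.0%), 7 of 31 at 100 to under 200, 9 of 42 at 200 to under 500 and 31 of 153 at 500 to under 1000 (20.3%). Above that they were 31 of 249 at 1000 to under 2000 bases (12.4%) and 28 of 235 at 2000 or more (11.9%). The share of silent genes showed no such order, at 39.3% under 100 bases, 24.2% at 500 to under 1000 and 34.0% at 2000 or more. Recovered lengths are least certain for genes with reads in few libraries, and 89 of the 250 silent genes had 0 FPKM in Mybx1 at 6 hpf. Some silent genes may thus stand in too short a band. Length and kind of name overlapped, since at 1000 bases or more members were 36 of 356 genes with a gene name (10.11%) and 14 of 71 with a clone-based name (19.7%). At 500 to under 1000 bases they were 8 of 52 (15.4%) and 21 of 87 (24.1%), and under 500 bases 1 of 11 (9.09%) and 10 of 32 (31.25%). With no symbol they were 14 of 61 under 500 bases, 2 of 14 (14.3%) at 500 to under 1000 and 9 of 57 (15.8%) above. Among the members themselves, the length and the Mybx1 level as a percent of WT had a Spearman rho of -0.23 over 120 genes and -0.09 over the 99 of at least 200 bases.

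**Figure D5:**
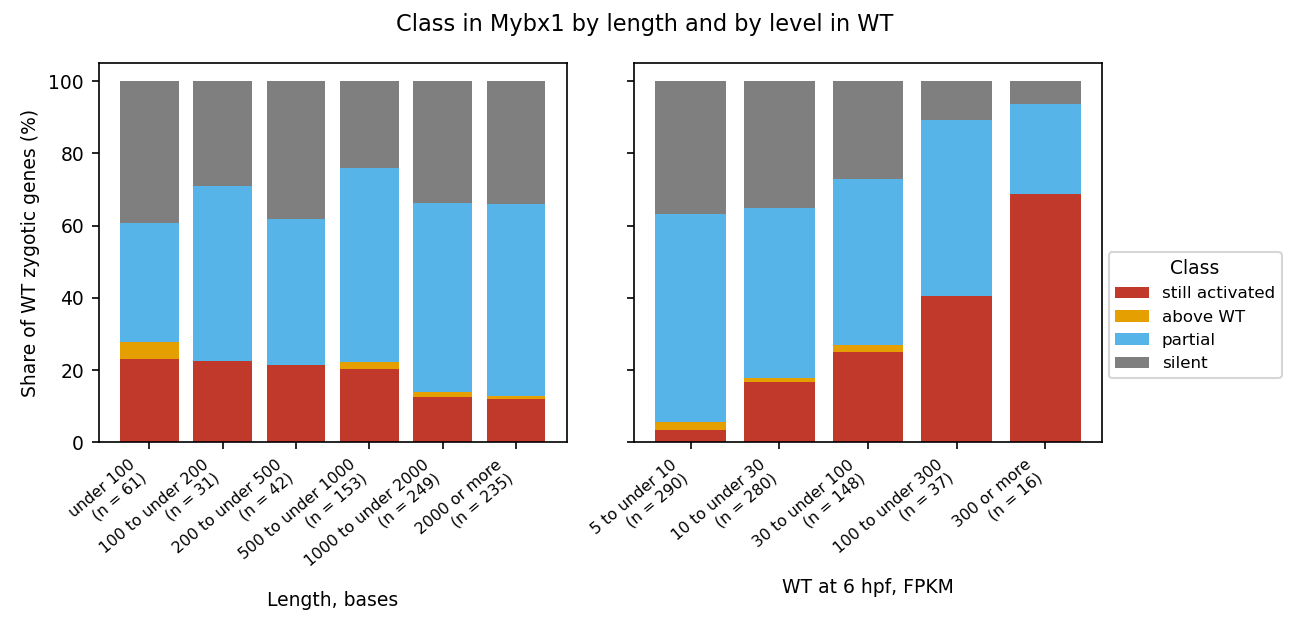
Share of the zygotic genes of WT (y axis, percent) in each class in Mybx1, by recovered length in bases (left) and by FPKM in WT at 6 hpf (right), with the number of genes under each bar. Members fall from 20.3% at 500 to under 1000 bases to 11.9% at 2000 or more, and rise from 3.45% of genes under 10 FPKM in WT to 68.8% of those at 300 or more.

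The longest members were the transporter gene SLC7A8 at 6116 bases, akap12b at 4540, si:dkey-35h6.1 at 4261, si:dkey-18j14.5 at 4046 and sesn3 at 3720. SLC7A8, akap12b and sesn3 were 24.4-fold, 15.8-fold and 6.37-fold below WT. Of the 28 members of 2000 bases or more 8 were within 2-fold of WT, as were 9 of the 31 at 500 to under 1000 bases and 7 of the 31 at 1000 to under 2000. The shortest member with a gene name was dkk1b, at a lower limit of 338 bases. Genes within 2-fold of WT were thus found at every length.

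By function, 89 zygotic genes of WT were on 1 or more of 20 lists of early developmental genes, and 16 of these were members (17.98%), 3 were above WT, 38 were partial and 32 silent (36.0%). Members were 15.6% of all zygotic genes of WT and 10.7% of those with a gene name. The lists match by symbol, but the genes with a gene name include listed genes, and some in human form that no list matched. The lists were chosen with earlier results of these data known, and none of these shares takes account of the level in WT. Neither difference was tested. Of 14 first-wave zygotic genes 6 were members, namely vox, klf17, krt18a.1, nnr, sox19a and cldne. Of the other 8, isg15, aplnrb and mxtx2 were above WT, vent, ved, dusp6 and tbx16 were partial, and foxd5, with 47.2 FPKM in WT and 0 reads in Mybx1 at 6 hpf, was silent. Of 17 genes on the list for the enveloping layer, 5 were members (krt4, krt18a.1, cldnb, cldne and klf17), 4 were partial and 8 silent. Silent among them were krt17, with 98.0 FPKM in WT and 0.140 in Mybx1, and agr1, with 39.6 FPKM in WT and 0 reads in Mybx1.

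Among the listed genes, members were 2 of 11 homeobox genes (vox and mxtx1), 1 of 3 Sox genes (sox19a) and 1 of 8 zinc finger genes (klf17). They were 1 of 3 Nodal pathway genes (ndr2) and 1 of 3 Wnt pathway genes (dkk1b). They were also 1 of 7 genes of retinoic acid, apelin and chemokine signalling (cxcl12b) and 1 of 4 of ephrins, protocadherins and matrix (epha2b). For the yolk syncytial layer they were 1 of 8 (mxtx1). On the list of metabolism and transport they were 1 of 5, but this was asb11, an ankyrin repeat gene. The only zygotic gene on the list of p53, stress and death was sesn3, and the only one on the cell cycle list was e2f7, both members. No member was among the 6 FGF pathway genes, 4 BMP pathway genes, 4 bHLH and Id genes, 3 T-box genes, 3 forkhead genes, 2 Notch pathway genes and 1 interferon gene. Members given in a human form, such as BMP2, FZD8 and GADD45G, match no list, so these counts leave them out. Other zygotic genes in human form are left out too, such as FOXB1, FOXC1, ZIC2 and DLL1, all silent, and GADD45A, which was above WT. The number of zygotic genes given for a list can thus be too low for its family. The zinc finger members drll.3, znf1145 and znf1125 are on no list either, so the counts do not cover whole families.

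Some members, chosen here after their values were seen, lie beside a zygotic gene of another class in the RefSeq gene order of assembly GRCz12tu, in which 47 members could be placed. vox, at 224 FPKM in WT and 25.5 in Mybx1, is next to vent, a related homeobox gene at 31.5 and 4.11. cldne, at 267 and 8.82 FPKM, lies between cldnf, at 33.6 in WT and 0.195 in Mybx1, and cldnj, at 10.7 and 2.36. krt18a.1, at 2042 and 77.0 FPKM, is 2 genes from krt5, which was at 479 in WT and 0.696 in Mybx1. drll.3, at 17.99 and 23.2 FPKM, is 3 genes from drll.1, at 5.63 and 0.969. The neighbours cldnf, krt5 and drll.1 kept a smaller part of their WT level than the member beside them, and vent and cldnj a larger one. Each neighbour was under 5 FPKM in Mybx1, as the rule for the classes requires.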

How the data were processed

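Embryos of 2 genotypes at 2 stages gave 4 libraries, each a group of its own. The authors deposited FPKM values for 31870 gene identifiers. Tools listed in the submitters' processing notes, without a role, are HTSeq 0.6.1, TopHat2 2.0.12 and Bowtie2 2.2.3, and the build is GRCz10. How FPKM was computed, from which annotation and with which strand setting is not given in the sources used here, and reads of overlapping antisense genes cannot be told apart.

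Library totals were recovered from the steps of low values to within 0.00163 of a whole read, and each gene's length and reads as the smallest whole numbers that give all its values. These reads are lower limits and sum to between 88.8% and 93.3% of the totals. The recovery was also tried on simulated data (Python 3.11.15, scipy 1.17.1). No outcome is given here, so the trial lends no support to the recovered lengths and reads, those of short genes included. Differences were taken on log2(FPKM + 1), folds on FPKM. A difference counts as a rise or fall at 2-fold or more. The FPKM rule for members, the 20 function lists and the grouping by role were chosen with earlier results of these data known. Symbols came from a table of identifiers, with lower case from RefSeq (GRCz12tu) where unambiguous. Sequences of promoters and proteins were not used here, so protein signatures and promoter motifs were not analysed. A rule set which genes to name: the 20 members highest in Mybx1, those furthest from WT, those on a list, the longest and shortest, and those at each threshold. Not every gene that it covers is named here. Members named outside the rule, for their roles, were chosen after their values were seen.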

Additional observations from a re-analysis of the deposited data

How the results depend on the processing

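The number of members, 120, was 220 with a minimum of 3 FPKM at 6 hpf and 46 with a minimum of 10, and stayed between 83 and 167 under the other alternatives tried. With TPM, 99 of the 120 were among the 167 genes found, and with median-of-ratios scaling 110 of the 120 among 128. The share of the zygotic genes of WT that are members, 15.6%, was 19.5% with a minimum of 3 FPKM, 9.56% with 10, 20.2% with TPM and 11.9% with median-of-ratios scaling. The median difference of the members from WT, -1.67, was -1.81 with a pseudocount of 0.1, -1.32 with 5, -1.50 with TPM, -2.38 with median-of-ratios scaling and -1.88 over the 102 members with at least 10 reads, an alternative chosen after seeing the data. The count within 2-fold, 36, was 14 with median-of-ratios scaling and between 30 and 46 otherwise.

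The median length was 787 bases for members and 1219 for other zygotic genes with a limit of 0.2 FPKM at 0 hpf, and between 924.5 and 1012.5 for members with the other FPKM limits of the rule. The remaining alternatives for length were chosen after seeing the data. The median of members with at least 10 reads was 1254. The medians of members and others were 1273 and 1560 from 200 bases up, 1484 and 1828 with gene names, and 1614 and 1892 with reads in 3 or 4 libraries, and that of members was 1153 at 5 to under 10 FPKM in WT, 850.5 at 10 to under 100 and 1279.5 at 100 or more. Members were the shorter under every alternative that gave both medians. The causes of these shifts were not tested. Coding lengths and protein signatures were not run. No library could be left out, with 1 per group. No paired analysis was possible because each group holds 1 library and the labels give no replicate numbers. Depth limits the members under 200 bases most.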
